A study of Mus musculus with 74 samples.

Results

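White adipocyte chromatin was compared between 1 h and 21 h of Zeitgeber time (ZT1 and ZT21), the pair of sampling times that lie on either side of lights on, 4 h apart in a cyclic day. Members were the 6 ATAC-seq libraries of inguinal white adipose tissue (WAT) at these times, 3 at ZT1 and 3 at ZT21, of 74 samples in the series. All 25050 regions of the deposited WAT table were tested. Mice of both groups carried Adiponectin-Cre and the NuTRAP allele, in which Cre, driven here by the promoter of the adipocyte hormone adiponectin, switches on a fluorescent tag of nuclei and a GFP tag of ribosomes, so the profile is that of sorted tagged nuclei and not of the whole depot. The sources used here give no age, sex, diet, feeding or light schedule, and do not say whether the 3 libraries of a time came from separate animals, so p-values measure the spread between libraries. The other libraries used were WAT ATAC at the remaining 4 times, brown adipose tissue (BAT) ATAC at all 6 times, ribosome-bound RNA of WAT, and a BMAL1 ChIP-seq peak set of inguinal WAT of C57BL6J mice at ZT4.

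ATAC-seq uses a transposase that cuts and tags DNA where it is not covered by nucleosomes, so the number of tags in a region measures how accessible it is. The circadian clock of each cell runs on the activators BMAL1 and CLOCK, which bind E-boxes and switch on their own repressors of the Per and Cry families, together with the nuclear receptor Nr1d1 and the PAR-domain factors Dbp, Tef and Hlf. In mice, which feed mainly in the dark, lights on marks the passage from the active and fed phase to rest. White adipocytes store fat after meals under insulin and release fatty acids between meals.

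The 3 ZT1 libraries held 3254384, 2514628 and 2560433 tags in regions, and the 3 ZT21 libraries 2439900, 4767969 and 1623006. The shallowest library, ZT21 replicate 3, stood apart from its own time. Its log2 tag levels correlated, across all regions, at 0.871 to 0.891 with the ZT1 libraries and at 0.828 and 0.848 with ZT21 replicates 1 and 2. ZT21 replicates 1 and 2 correlated at 0.94 with each other, and the 3 ZT1 libraries at 0.928 to 0.944. These correlations are over regions of the same libraries, which are not independent, and are given as a description. Regions lay within 10 kb of the start of 9 of 10 adipocyte marker genes, Cfd being the one without, and those within 1 kb summed to 790 to 874 CPM at ZT1 and 779 to 795 at ZT21. No region was listed within 10 kb of any of 9 macrophage, 8 endothelial or 8 mammary epithelium markers, nor of Cd3e or Cd79a among lymphocyte markers. Acta1, Mylpf, Myh1 and Pvalb, 4 of 10 skeletal muscle markers, and Col1a1 and Pdgfra, 2 of 9 fibroblast markers, had regions, and none of these was called.

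Stretches of 4 promoters are printed here in the coordinates of the mm10 build, from RefSeq on GRCm38.p6, 5′ to 3′ on the strand of the gene, because the results return to each of them. Each is the part of an accessible region that lies in a RefSeq promoter window, here the 250 bases before a start site of the gene. Ndrg2, a member of the NDRG family of stress and differentiation genes, had the promoter with the smallest p among those more accessible at ZT1 (chr14:51914101-51914251, minus strand). Nr1d1, the clock repressor REV-ERBα, was the core clock gene with the smallest p (chr11:98775378-98775524, minus strand). Cish, an inhibitor of cytokine and growth hormone signalling through STAT5 (chr9:107296493-107296643, plus strand), was less accessible at ZT1 and its RNA was lower as well. Igfals, a subunit of the complex that carries IGF1 in blood (chr17:24878072-24878222, plus strand), was chosen after its values were seen, as a promoter at which the ZT21 libraries parted.
Ndrg2: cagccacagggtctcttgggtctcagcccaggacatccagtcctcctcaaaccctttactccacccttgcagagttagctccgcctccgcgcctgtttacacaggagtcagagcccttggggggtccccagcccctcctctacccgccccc
Nr1d1: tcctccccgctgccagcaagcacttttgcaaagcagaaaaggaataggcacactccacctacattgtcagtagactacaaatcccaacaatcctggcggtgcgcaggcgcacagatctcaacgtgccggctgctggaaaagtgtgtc
Cish: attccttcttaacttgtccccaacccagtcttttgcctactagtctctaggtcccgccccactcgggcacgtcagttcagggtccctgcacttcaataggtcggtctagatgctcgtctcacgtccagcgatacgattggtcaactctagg
Igfals: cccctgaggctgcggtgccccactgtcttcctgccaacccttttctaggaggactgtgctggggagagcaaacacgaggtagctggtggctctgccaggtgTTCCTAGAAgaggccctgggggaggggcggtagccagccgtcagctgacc
Capitals mark a match to the STAT motif TTCNNNGAA, which 4.12% of 32851 windows of 151 bases just before RefSeq start sites hold on either strand. The 4 stretches held no match, on either strand, to the E-box CACGTG, which 4.31% of those windows hold, the D-box TTANGTAA, the ROR element or the glucocorticoid element ACANNNTGT, which 1.12%, 0.35% and 3.18% hold. A match is a description of letters in this window and not of a bound site, and no match says nothing of the factor.

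Between ZT1 and ZT21 the chromatin of white adipocytes changed in both directions. Regions near Gpx3, Thra and Nr1d1 were more accessible at ZT1, and regions near Steap4, Insig2, Mgll, Scarb1 and the growth hormone receptor gene Ghr were less accessible. Of the 25050 regions, 1586 were called at an adjusted p under 0.05, which is 6.33%, by edgeR's quasi-likelihood test with Benjamini-Hochberg adjustment over all regions. Accessibility rose in 639 regions, 2.55% of all, and fell in 947, 3.78% of all. The median fold of the called regions was 1.59 among those that rose and 1.76 among those that fell, and 105 and 295 of them reached 2-fold, together 1.6% of all regions. Among the regions that rose, the 3 ZT1 libraries all lay above the 3 ZT21 libraries in 598, against 11.5% of all regions. Among those that fell, the 3 ZT1 libraries all lay below the 3 ZT21 libraries in 740, against 11% of all regions.

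ZT21 replicate 3 touched the regions that fell more than those that rose. It lay nearer to the ZT1 mean than to the mean of the other ZT21 libraries in 533 of the 947 regions that fell, or 56.3%, and in 90 of the 639 that rose, or 14.1%. In 206 and 38 of them it lay inside or past the range of the ZT1 libraries. Without it, 2440 regions were called, 884 higher and 1556 lower, and 568 and 882 of these were among the calls with all libraries. What sets this library apart was not tested.

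The regions of the smallest p that rose lay near Gpx3, Thra, Pomgnt2, Apol6 and 4931406P16Rik. The first lay 17.7 kb upstream of Gpx3, which encodes the secreted glutathione peroxidase of plasma (chr11:54885051-54885201, intergenic). Its accessibility was 80.2, 66.9 and 79.6 CPM, which are tags per 1000000 tags in regions scaled by the TMM method, in the 3 ZT1 libraries, against 21, 23.4 and 31.5 CPM in the 3 ZT21 libraries. All ZT1 libraries were high and all ZT21 libraries low, with means of 75.6 ± 7.46 and 25.3 ± 5.53 CPM (SD, n = 3 each), and the log2 change was 1.63 ± 0.15 (SE, edgeR adjusted p = 1.94e-06). An intron of Thra, the gene of thyroid hormone receptor alpha, gave 64.2, 61.8 and 67.1 CPM at ZT1 and 20.6, 31.2 and 22.3 CPM at ZT21 (chr11:98750565-98750715). The groups did not overlap there, and the log2 change was 1.32 ± 0.14 (edgeR adjusted p = 2.44e-05).

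The Ndrg2 promoter printed above held 29.8, 38.6 and 43.3 CPM at ZT1, against 10.7, 10.8 and 13.6 CPM at ZT21. Every ZT1 library was more than 2-fold above the highest ZT21 library, and the log2 change was 1.70 ± 0.22 (edgeR adjusted p = 0.000124). Nfe2l1, a transcription factor of proteasome genes, had an intronic region with 46.4, 57.0 and 62.0 CPM at ZT1 and 15.2, 21.3 and 27.2 CPM at ZT21, with no overlap (log2 1.40 ± 0.19, edgeR adjusted p = 0.000202). Pomgnt2, which encodes a glycosyltransferase of α-dystroglycan, had a region 31.7 kb upstream with 48.8, 53.4 and 49.5 CPM at ZT1 and 17.7, 21.1 and 27.8 CPM at ZT21 (log2 1.23 ± 0.14, edgeR adjusted p = 2.44e-05). The largest change among the 15 regions of the smallest p was that of the uncharacterised gene 4931406P16Rik, with 39.0, 53.8 and 76.8 CPM at ZT1 and 12.7, 13.7 and 14.2 CPM at ZT21 (log2 2.05 ± 0.23). Others of these 15 lay near Apol6, the matrix protein gene Matn4, the deubiquitinase gene Mindy4, H2afy3, the F-box gene Fbxo21, Gm10584, 9530091C08Rik and Zfp648. Their log2 changes ran between 0.77 at Apol6 and 1.67 at Fbxo21.

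The regions of the smallest p that fell lay near Hs3st3b1, Sh3bp2, Steap4, Insig2 and Orm1. Steap4, a metalloreductase of adipocytes, had a region 42.5 kb upstream of its start (chr5:7917927-7918077) with 18.1, 10.8 and 10.9 CPM at ZT1, against 38.7, 43.4 and 37.1 CPM at ZT21. All 3 ZT1 libraries were at under 1 in 2 of the lowest ZT21 library, and the log2 change was -1.57 ± 0.20 (edgeR adjusted p = 0.000137). An intergenic region downstream of Insig2, whose product holds the sterol factor SREBP in the endoplasmic reticulum, had 29.8, 27.9 and 34.7 CPM at ZT1 and 61.7, 67.9 and 58.7 CPM at ZT21 (chr1:121280644-121280794). Its groups were apart in all libraries, with a log2 change of -1.04 ± 0.14 (edgeR adjusted p = 0.000147).

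Among lipid genes, an intron of Mgll, the monoacylglycerol lipase of the last step of lipolysis, gave 34.1, 26.3 and 34.3 CPM at ZT1 and 85.1, 90.2 and 51.3 CPM at ZT21. ZT21 replicate 3 was the lowest of its time and still above every ZT1 library (log2 -1.30 ± 0.19, edgeR adjusted p = 0.000253). An intron of Scarb1, the receptor for high-density lipoprotein, gave 15.7, 7.17 and 8.58 CPM at ZT1 and 39.9, 34.6 and 26.6 CPM at ZT21, with no overlap (log2 -1.66 ± 0.24, edgeR adjusted p = 0.000246). Orm1, an acute-phase plasma protein, gave 20.6, 11.6 and 13.3 CPM at ZT1 and 46.5, 47.4 and 34.0 CPM at ZT21 (log2 -1.49 ± 0.20). Dhrs3, which reduces retinal to retinol, was among the most even of these regions, with 18.1, 17.9 and 20.3 CPM at ZT1 and 39.9, 41.1 and 42.0 CPM at ZT21 (log2 -1.13 ± 0.16, edgeR adjusted p = 0.000246).

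An intron of Hs3st3b1, a heparan sulfate sulfotransferase, had the smallest p of the regions that fell, with 28.3, 30.7 and 25 CPM at ZT1 and 49.8, 57.1 and 53.2 CPM at ZT21 (chr11:63914465-63914615, log2 -0.94 ± 0.12, edgeR adjusted p = 0.000107). Its promoter fell as well, by 0.95 on the log2 scale. The signalling adaptor gene Sh3bp2 had 33.8, 25.1 and 21.4 CPM at ZT1, against 61.7, 62.6 and 53.8 CPM at ZT21 (log2 -1.14 ± 0.15). The other 7 of the 15 lay near Wdsub1, the sodium-calcium exchanger gene Slc8a1, Gm4876, Gm6567, the microRNA gene Mir193a, 0610038B21Rik and Gm10637, with log2 changes between -1.94 at Slc8a1 and -0.64 at Mir193a. All 30 regions of the smallest p kept their call in each of 14 other settings of the test. They were chosen for small p and no overlap in these same libraries, so this follows in large part from the choice.

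**Figure D1:**
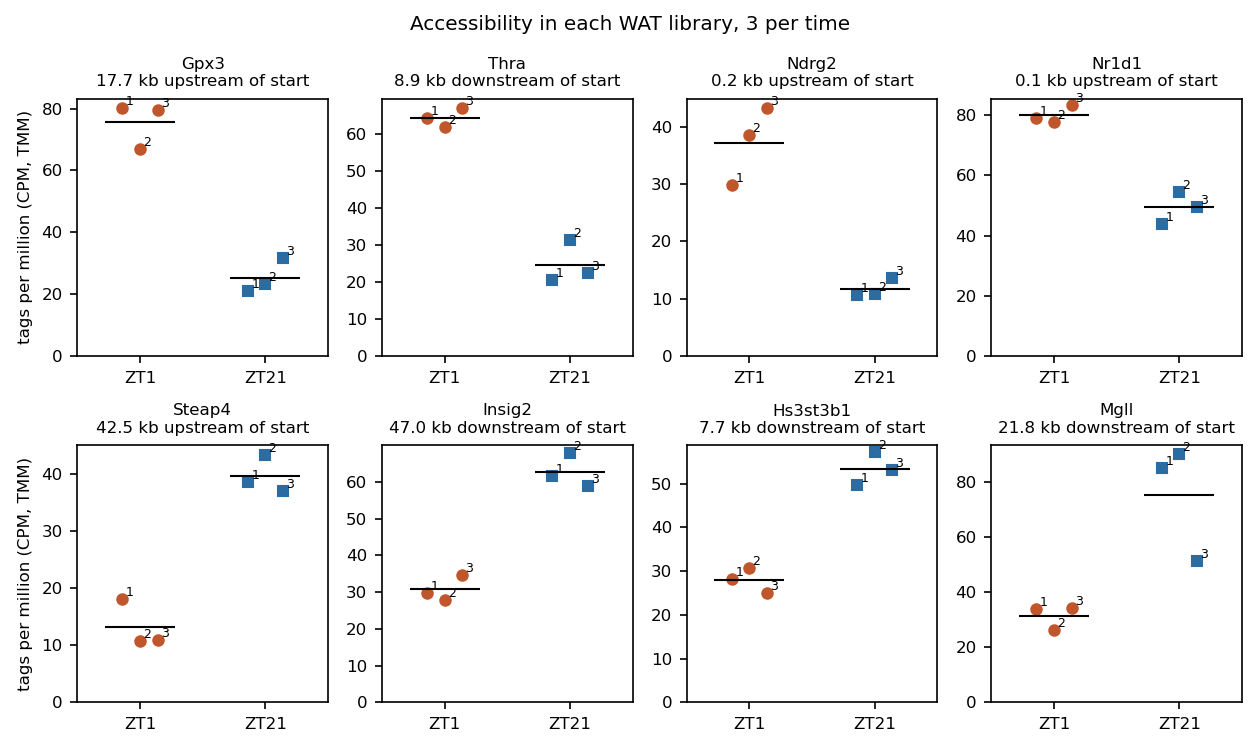
Accessibility (CPM, TMM-scaled, linear axes starting at 0) of 8 regions in each WAT library, ZT1 as circles on the left and ZT21 as squares on the right of each panel, with the replicate number beside each point and the mean of 3 as a line. The regions near Gpx3, Thra, Ndrg2 and Nr1d1 were higher at ZT1 and those near Steap4, Insig2, Hs3st3b1 and Mgll lower, and ZT21 replicate 3 was the lowest ZT21 library at Mgll, with 51.3 CPM.

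Some genes had several called regions, nearly all in 1 direction. Steap4 had 6 called regions of 8, all lower at ZT1, with log2 changes between -1.78 and -0.68, its promoter among them. All 5 regions of Galnt12, which starts mucin-type O-glycosylation, fell, by 0.42 to 0.80 on the log2 scale. The growth hormone receptor gene Ghr had 5 of 11 regions called, all lower, with log2 changes between -1.47 and -0.57. The region at its annotated start site held 50.7, 46.6 and 49.9 CPM at ZT1, against 76.9, 84.9 and 66.8 CPM at ZT21, with no overlap (log2 -0.66 ± 0.13, edgeR adjusted p = 0.00459). Pik3r1, a regulatory subunit of the phosphoinositide 3-kinase of insulin signalling, had 5 of 11 regions called, all lower. Dhrs3 had 4 of 16 lower and 1 higher, and Mir365-2, a neighbour of Mir193a on chromosome 11, 5 of 8 lower. Called regions 12 kb downstream of the Steap4 start, 18.6 kb upstream of Ghr and 11.8 kb downstream of Galnt12 overlapped between the times. The Steap4 region held 38.1, 32.3 and 35.1 CPM at ZT1 and 97.0, 87.3 and 37.1 CPM at ZT21. In each of these regions ZT21 replicate 3 was the lowest ZT21 library. The other called regions of the genes named here did not overlap. Regions were given to the gene that the deposited annotation names as nearest, over distances of up to 375.8 kb at Pik3r1, so a region need not act on that gene.

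Across the day, the regions that rose were a set that was low at ZT21, and those that fell were high at ZT21 and low at ZT1. The calls used ZT1 and ZT21, so the positions of these times in the profile follow from the choice. The levels at the other 4 times did not enter the contrast, but their libraries entered the fit and its estimate of the spread. The regions that rose were lowest at ZT21 in 550 of 639, or 86.1%, and highest at ZT1 in 338, or 52.9%. Their median level relative to the mean of the 6 times was 0.196 at ZT1, 0.0553 at ZT5, 0.136 at ZT9, 0.0992 at ZT13, -0.0504 at ZT17 and -0.392 at ZT21, in log2(CPM + 1). The regions that fell were highest at ZT21 in 663 of 947, or 70%, and lowest at ZT1 in 603, or 63.7%, with ZT13 the next most frequent low time at 162, or 17.1%. Their medians were -0.374 at ZT1, 0.106 at ZT5, 0.000595 at ZT9, -0.145 at ZT13, 0.0496 at ZT17 and 0.414 at ZT21. In the same fit, ZT5 against ZT1 gave 1559 called regions (6.22%) and ZT21 against ZT17 gave 974 (3.89%), while ZT9 against ZT5 gave 27 (0.108%), ZT17 against ZT13 gave 15 (0.0599%) and ZT13 against ZT9 gave 0 by edgeR, where 2014 regions had an unadjusted p under 0.05. The ZT5 against ZT1 and ZT21 against ZT17 comparisons share the ZT1 or the ZT21 libraries with the one described here.

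**Figure D2:**
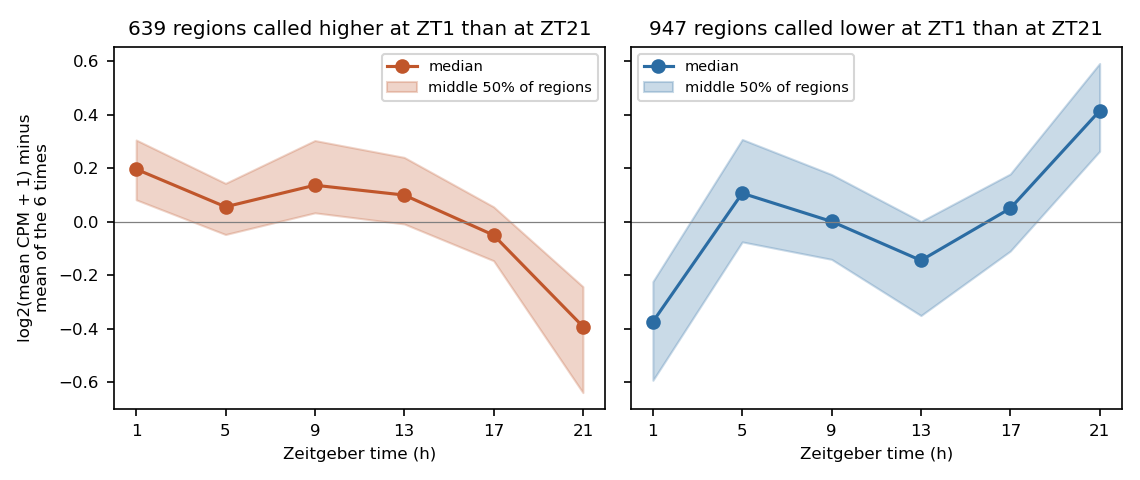
Median level of the 639 regions that rose (left) and the 947 that fell (right) at the 6 sampling times, as log2(mean CPM + 1) minus the mean of the 6 times, with a band for the middle 50% of regions. The regions that rose had their low at ZT21, with a median of -0.392, and those that fell had lows at ZT1, with -0.374, and at ZT13, with -0.145.

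Promoters opened more often than they closed, and introns and intergenic regions closed more often than they opened. Of 9463 regions annotated as promoters, 173 rose, or 1.83%, and 77 fell, or 0.814%. Of 7676 intronic regions, 231 rose, or 3.01%, and 407 fell, or 5.3%, and of 6485 intergenic regions 189 rose, or 2.91%, and 421 fell, or 6.49%. Promoters made up 27.1% of the regions that rose, 8.13% of those that fell and 39.3% of those not called, so both called sets held fewer promoters than the rest. The median log2 change over all promoters was 0.064, against -0.0456 over introns and -0.0899 over intergenic regions. The share of each library's tags that fell in promoters was 49.5% to 50.7% in the ZT1 libraries, against 47.5% to 48.4% in the ZT21 libraries, without overlap. The part of this share in the called regions was not tested. Without ZT21 replicate 3 the counts were 241 higher and 116 lower among promoters, 324 and 659 among introns, and 245 and 711 among intergenic regions.

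BMAL1 is the activator that drives the clock's daytime targets. The deposited set of 10368 peaks came from 2 ChIP libraries at ZT4, so it does not say which sites are bound at ZT1 or at ZT21. BMAL1 peaks overlapped 162 of the regions that rose, or 25.4%, 115 of those that fell, or 12.1%, and 23.6% of those not called, at an overlap of at least 75 bases. Of the 5820 regions on BMAL1 peaks, 2.78% rose and 1.98% fell, and of the 19230 regions off them 2.48% rose and 4.33% fell. The share that rose on BMAL1 peaks was thus near the 2.55% of all regions. Among the 3513 promoters on BMAL1 peaks, 62 rose, or 1.76%, and 10 fell, or 0.285%, against 1.87% and 1.13% of the 5950 promoters off them, so the share that rose was no higher on peaks. Among the 2307 other regions on peaks 100 rose, or 4.33%, and 105 fell, or 4.55%. Of the 13280 other regions off peaks, 2.76% rose and 5.76% fell, so outside promoters the share that rose was higher on peaks. On the 2000 peaks with the highest scores, which are the authors' values, 56 of 1276 regions rose, or 4.39%, and 12 fell, or 0.94%. Without ZT21 replicate 3 these were 79 and 18.

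**Figure D3:**
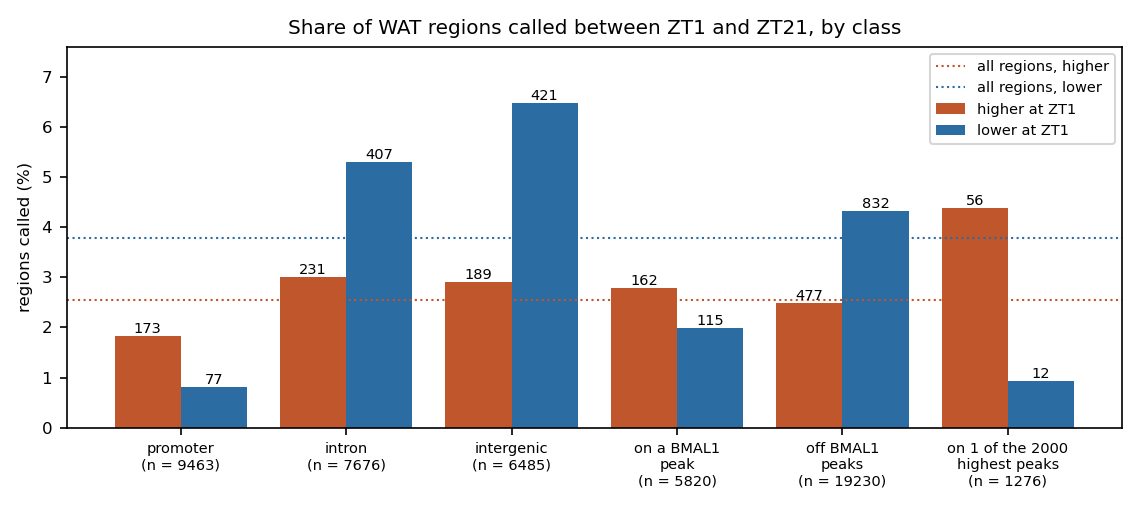
Share of WAT regions called (%, linear axis starting at 0) that rose at ZT1 (left bar of each pair) and fell (right bar), with counts above the bars, for 3 annotation classes and by overlap with BMAL1 peaks, and dotted lines for all regions. Intergenic regions fell most often, at 6.49%, and regions on the 2000 highest BMAL1 peaks rose most often, at 4.39%.

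Of the core clock, the promoter of Nr1d1 and regions of Bhlhe41, Tef and Per3 rose, and none fell, a share that rests on 4 calls. All 19 listed clock genes had a region within 10 kb of a start site, 45 regions in all, of which 4 were called. This is 8.89%, against 6.33% of all regions. Of the 14760 regions within 10 kb of any start site, 2.26% rose and 1.92% fell. The median log2 change was 0.0824, against 0.0067 over all regions and 0.0479 over those within 10 kb. Nr1d1 is the REV-ERBα repressor of Arntl, the gene of BMAL1. Its promoter, printed above, held 78.9, 77.7 and 83.5 CPM at ZT1, against 44.0, 54.6 and 49.5 CPM at ZT21. The groups were well apart, and the log2 change was 0.68 ± 0.10 (edgeR adjusted p = 0.000293). A region 9.5 kb from the start of Bhlhe41, which encodes the repressor DEC2, held 25.8, 22.7 and 28.5 CPM at ZT1 and 6.99, 14.8 and 11.7 CPM at ZT21, with no overlap (log2 1.14 ± 0.23, edgeR adjusted p = 0.00447). These 2 calls held in each of the 14 other settings. Both regions lay on BMAL1 peaks.

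The promoter of Tef, a PAR-domain activator of D-boxes, held 126, 147 and 132 CPM at ZT1 and 91.3, 107 and 109 CPM at ZT21 (log2 0.39 ± 0.09, edgeR adjusted p = 0.0146), and an intron of the repressor gene Per3 held 54.7, 55.8 and 62.8 CPM at ZT1 and 40.7, 36.5 and 46.4 CPM at ZT21 (log2 0.52 ± 0.14, edgeR adjusted p = 0.0308). Neither overlapped between the times, but leaving out 1 library ended the Tef call in 3 of 6 cases and the Per3 call in 4 of 6. The other 15 clock genes gave no call. The promoter of Dbp, the PAR-domain partner of Tef, held 103, 88.9 and 92.4 CPM at ZT1 and 78.1, 87.5 and 93.4 CPM at ZT21, with overlap (log2 0.15 ± 0.08, edgeR adjusted p = 0.317), although its BMAL1 peak had a score of 127 against 85.1 at Nr1d1. Log2 values were 0.37 at Ciart (edgeR adjusted p = 0.0742), -0.41 at Arntl (edgeR adjusted p = 0.0938), 0.08 at Per1, 0.11 at Per2, 0.08 at Cry1, -0.02 at Nr1d2 and 0.02 at Clock. Without ZT21 replicate 3 the clock regions gave 6 higher and 1 lower.

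Of 34 regions near 13 of 15 fatty acid synthesis genes, 5 fell and none rose. This is 14.7% called, against 6.33% of all regions. Within 10 kb of any start site, 2.26% of regions rose and 1.92% fell. Of the 34, 16 had a positive change, and the median log2 change was -0.0639. Srebf1, the transcription factor that switches on these genes under insulin, held 27.6, 15.5 and 21.1 CPM in an intronic region at ZT1, against 55.1, 49.1 and 27.8 CPM at ZT21. ZT21 replicate 3 lay just above the ZT1 libraries, and the log2 change was -1.07 ± 0.20 (edgeR adjusted p = 0.00344), a call kept in each of the 14 other settings. A pair of regions of Acaca, the acetyl-CoA carboxylase of this pathway, fell (log2 -0.56 and -1.28), as did 1 of Acacb (log2 -0.96) and the promoter of the desaturase gene Scd1. That promoter held 16.0, 17.5 and 21.1 CPM at ZT1 and 48.5, 38.4 and 20.4 CPM at ZT21, so replicate 3 of ZT21 overlapped with ZT1 (log2 -1.03 ± 0.26, edgeR adjusted p = 0.018). The Acaca, Acacb and Scd1 calls ended when ZT21 replicate 1 or 2 was left out. In all, of 14 other settings, the Acaca calls were lost in 3 and 6, the Acacb call in 6 and the Scd1 call in 4.

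Of the genes that respond to insulin, feeding and fasting, 5 of 41 regions rose and 4 fell, together 22% against 6.33% of all regions, with a median log2 change of 0.152. Among all regions within 10 kb of a start site, 2.26% rose and 1.92% fell, with a median of 0.0479. Pck1, which makes glycerol 3-phosphate for fat storage in adipocytes, held 76.8, 87.3 and 107 CPM in its promoter at ZT1, against 54.3, 51.0 and 58.7 CPM at ZT21. All ZT1 libraries were higher (log2 0.74 ± 0.14, edgeR adjusted p = 0.00342), and a region 7.0 kb downstream of the Pck1 start rose as well (log2 1.14 ± 0.22, edgeR adjusted p = 0.00384). Regions of the glycolytic regulator Pfkfb3 (log2 0.57), the FOXO factor Foxo3 (log2 0.45) and the hexokinase Hk2 (log2 0.63) rose. A pair of regions of Angptl8, a hepatic and adipose inhibitor of lipoprotein lipase induced by feeding, fell (log2 -1.06 ± 0.21, edgeR adjusted p = 0.00461, and -0.62), as did a pair at the Pik3r1 promoter (log2 -0.40 each). Of 14 other settings, the weaker Angptl8 call was lost in 6, the Pik3r1 calls in 3 and 4, Hk2 in 3, Foxo3 in 2 and Pfkfb3 in 1.

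The other lists gave few calls, and their shares are read against the 6.33% called over all regions. The lists hold only regions within 10 kb of a start site, and of all such regions 2.26% rose and 1.92% fell. Regions of the phosphatidate phosphatase gene Lpin1 (log2 1.11 ± 0.32, edgeR adjusted p = 0.0393) and of Gpat4 (log2 0.37) rose among 25 regions of triglyceride synthesis, or 8%. Among 29 regions of lipolysis and the droplet coat, 10.3% were called: the promoter of the droplet protein gene Cidec rose (log2 0.43), and a pair of regions of Abhd5, the co-activator of the lipase ATGL, fell. The first Abhd5 region held 18.7, 11.6 and 18.3 CPM at ZT1 and 77.7, 82.0 and 14.2 CPM at ZT21, where replicate 3 of ZT21 was at the ZT1 level (log2 -1.92 ± 0.48, edgeR adjusted p = 0.0187). Cebpa, a master factor of fat cells, rose at its single exon, with 125, 130 and 135 CPM at ZT1 and 92.9, 79.0 and 102 CPM at ZT21 (log2 0.54 ± 0.10, edgeR adjusted p = 0.00297), and was the 1 call among 28 regions of adipogenic factors (3.57%). The glucocorticoid targets Zbtb16 (log2 0.47) and Klf9 (log2 0.70) rose among 25 regions (8%), and Zfp36 (log2 0.60) among 42 regions of immediate early genes (2.38%). Among 20 regions of cholesterol genes, of which 10% were called, Srebf2 rose (log2 0.36), and the small heat shock gene Hspb1 fell (log2 -0.77) among 22 heat shock regions (4.55%). No call was made by edgeR among 13 adipokine regions, where Lep gave a log2 value of -0.33 (edgeR adjusted p = 0.201) and Sfrp5 1.03 (edgeR adjusted p = 0.135). The same held for 14 regions of 10 thermogenesis genes, where Cox8b gave -0.35 (edgeR adjusted p = 0.242) and Ppargc1b 0.22 (edgeR adjusted p = 0.342). Many of these calls were thin: of 14 other settings, Srebf2 was lost in 7, Cidec and Zfp36 in 6, Lpin1 and Hspb1 in 5, Klf9 in 4, Gpat4 in 3, Zbtb16 in 2 and Cebpa in 1, and the Abhd5 regions in 5 and 7. Ucp1 was 1 of 8 thermogenesis genes without a region within 10 kb.

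A set of regions was high in ZT21 replicates 1 and 2 and at or near the ZT1 level in replicate 3, with Serpinc1, Igf1, Igfals and Cish among the nearest genes. These genes, other than Cish, were chosen after their values were seen. An intron of Serpinc1, the antithrombin gene, held 4.30, 3.19 and 2.73 CPM at ZT1 and 54.3, 43.6 and 3.71 CPM at ZT21 (log2 -3.36 ± 0.68, edgeR adjusted p = 0.00477). There, the ZT1 libraries were alike and ZT21 replicate 3 differed from the other ZT21 libraries by far more than the ZT1 libraries from each other.

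Igf1, the growth factor that growth hormone induces, had an intronic region with 24.3, 14.3 and 16.8 CPM at ZT1 and 61.3, 56.3 and 21.6 CPM at ZT21 (log2 -1.37 ± 0.28, edgeR adjusted p = 0.00536). The Igfals promoter printed above held 22.4, 14.3 and 15.6 CPM at ZT1 and 72.8, 73.4 and 22.3 CPM at ZT21 (log2 -1.74 ± 0.45, edgeR adjusted p = 0.0205), and the Cish promoter 38.1, 39.4 and 42.9 CPM at ZT1 and 97.4, 96.3 and 42.7 CPM at ZT21 (log2 -1.05 ± 0.26, edgeR adjusted p = 0.0185). The cytokine signalling inhibitor Socs3 fell with no overlap between the times (log2 -0.66 ± 0.18, edgeR adjusted p = 0.0317). Leaving out ZT21 replicate 1 or 2 ended the Cish, Igfals and Socs3 calls. In all, of 14 other settings, the Cish call was lost in 6, Igfals in 5, Socs3 in 4 and Igf1 in 1. Libraries of the same time also parted at ZT5 and ZT9: the Igfals promoter held 47.6, 81.4 and 23.0 CPM at ZT5 and 83.4, 22.5 and 56.7 CPM at ZT9, against 17.2, 16.6 and 18.8 CPM at ZT13.

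**Figure D4:**
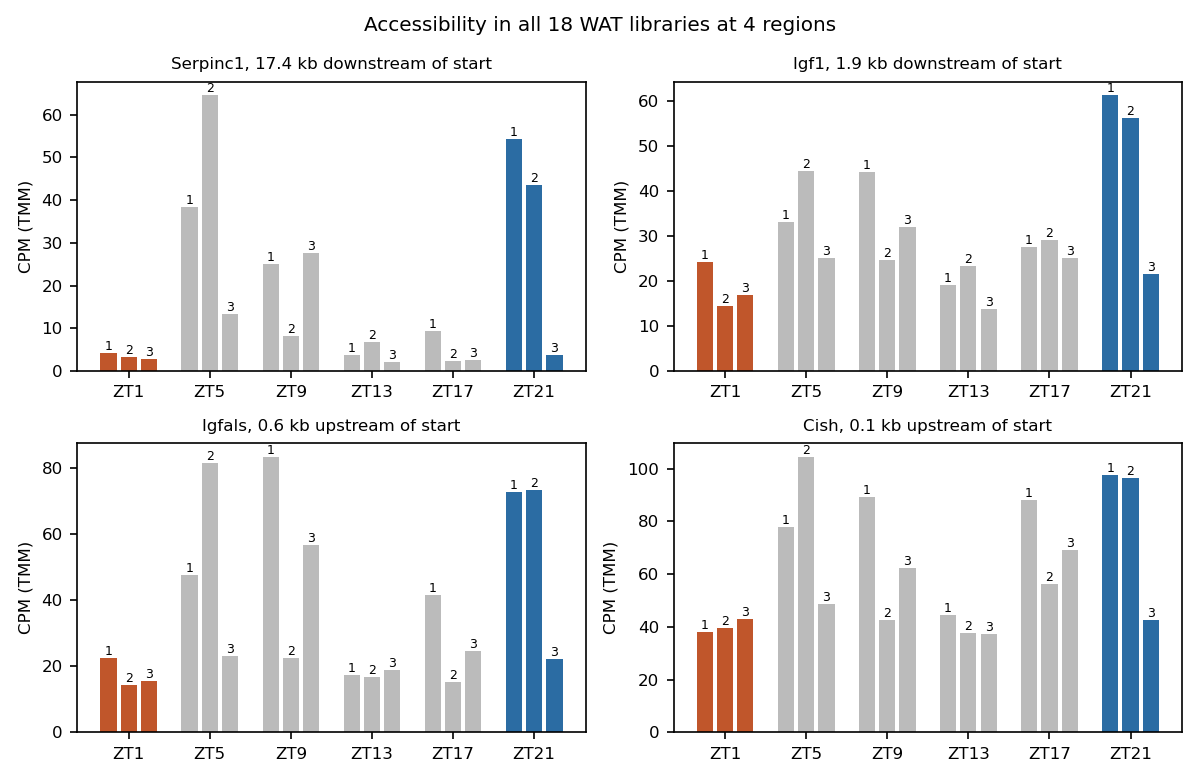
Accessibility (CPM, TMM-scaled, linear axes starting at 0) of regions near Serpinc1, Igf1, Igfals and Cish in all 18 WAT libraries, grouped by time, with ZT1 at the left end, ZT21 at the right end and replicate numbers above the bars. At Serpinc1 no ZT1 library was above 4.30 CPM, while ZT5, ZT9 and ZT21 each held libraries that parted, such as 54.3 and 3.71 CPM at ZT21.

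Brown adipocytes of the same times changed in the same direction at most of these regions. Of the 25050 WAT regions, 21636 overlapped a BAT region by at least 75 bases, and 1002 of these were called in BAT, or 4.63%, 416 higher and 586 lower. Of the 505 shared regions that rose in WAT, 460 had a positive change in BAT, or 91.1%, and 142 were called higher there against a background of 1.92%. Of the 730 that fell in WAT, 694 had a negative change in BAT, or 95.1%, and 203 were called lower there against 2.71%. Over all shared regions 49.2% were positive in BAT. The median log2 change of the regions that rose was 0.61 in WAT and 0.261 in BAT, and of those that fell -0.789 in WAT and -0.418 in BAT. The WAT values chose these regions, so their WAT medians are raised by the choice. Without the WAT ZT21 replicate 3, 88.2% and 95.3% kept these signs in BAT. The Igfals promoter held 67.6, 51.2 and 42.7 CPM at ZT1 and 121, 101 and 47.6 CPM at ZT21 in BAT, where replicate 3 was again the lowest ZT21 library. The sources used here do not say whether a WAT and a BAT library of the same number came from the same animals.

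A test of the depot difference, in 1 fit over the 36 ATAC libraries of both depots, called 22 shared regions, or 0.102%, 10 with the more positive change in WAT and 12 with the more negative one. At an unadjusted p under 0.05 there were 1802. With each WAT and BAT library of the same time and number as a block, 155 regions were called; such pairs correlated in their deviations at over 0.1 in 11 of 18 cases. Gpx3 was among the 22: its region held 107, 110 and 109 CPM at ZT1 and 109, 76.1 and 72.2 CPM at ZT21 in BAT, with overlap, so that the log2 change was 1.63 in WAT and 0.35 ± 0.12 in BAT, a difference of 1.27 (edgeR adjusted p = 0.00787). The Mgll and Steap4 regions fell more in WAT, with log2 changes of -1.30 in WAT and -0.29 in BAT at Mgll and of -1.57 and -0.34 in WAT and BAT at Steap4. The promoter of Car3, a carbonic anhydrase abundant in fat, held 108, 108 and 103 CPM at ZT1 and 89.2, 90.0 and 89.6 CPM at ZT21 in WAT, and 61.6, 57.4 and 56.0 CPM at ZT1 and 78.6, 73.5 and 83.3 CPM at ZT21 in BAT. It was the 1 region called in both depots, in opposite directions. The depot difference was 0.67 (edgeR adjusted p = 0.00484), the only one of the 22 that held in all 20 other settings; its WAT call ended in 10 of 14. A region 77.0 kb upstream of Irs2, an adaptor of the insulin receptor, changed in BAT and gave no call in WAT, with 41.2, 44.1 and 50.3 CPM at ZT1 and 21.7, 24.6 and 31.3 CPM at ZT21 in BAT (difference -0.86, edgeR adjusted p = 0.0433).

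The microRNA genes Mir193a and Mir365-2 on chromosome 11 gave 4 of the 22 regions. Their mature products, from RefSeq on GRCm38.p6, are printed with the seed, bases 2 to 8, in capitals, to show that the cluster makes RNAs of 4 different seeds.
mmu-miR-193a-5p: uGGGUCUUugcgggcaagauga
mmu-miR-193a-3p: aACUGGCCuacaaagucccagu
mmu-miR-365-2-5p: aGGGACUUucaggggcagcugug
mmu-miR-365-3p: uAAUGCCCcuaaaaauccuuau
In WAT the region 3.4 kb upstream of Mir365-2 held 27.6, 20.7 and 25.3 CPM at ZT1 and 53.9, 45.5 and 51.3 CPM at ZT21, without overlap (log2 -1.01 ± 0.16, edgeR adjusted p = 0.000496). In BAT the same region held 118, 97.3 and 101 CPM at ZT1 and 116, 103 and 100 CPM at ZT21, with full overlap, and the depot difference was -0.98 (edgeR adjusted p = 0.00821). The other 3 of these 4 regions differed by -0.82, -0.60 and -0.58, calls lost in 5, 11 and 11 of 20 other settings. The cluster also had regions without a depot difference. A region 3.5 kb downstream of the Mir365-2 start fell in WAT (log2 -0.71) and in BAT (log2 -0.35, edgeR adjusted p = 0.0434). Its depot difference was not called (edgeR adjusted p = 0.47).

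**Figure D5:**
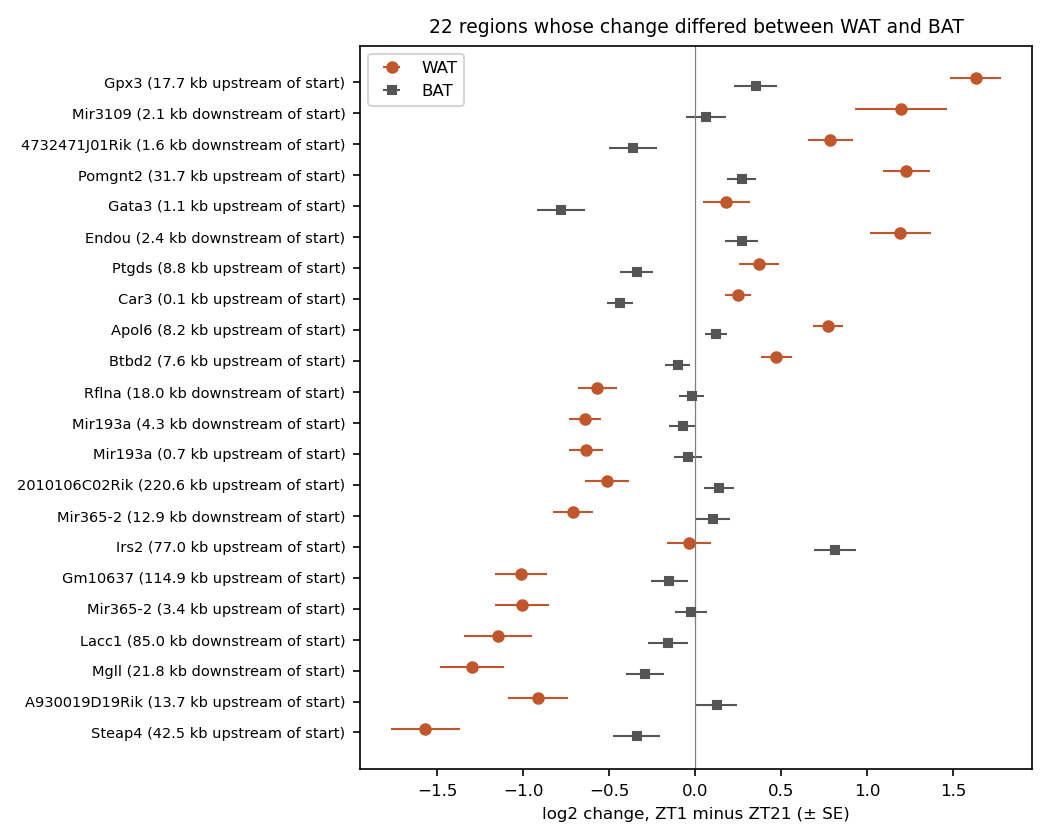
Log2 change, ZT1 minus ZT21 (± SE), in WAT (circles, upper point of each pair) and in BAT (squares, lower point) of the 22 regions whose change differed between the depots. Gpx3 changed by 1.63 in WAT and 0.35 in BAT, Steap4 by -1.57 in WAT and -0.34 in BAT, and Car3 by 0.25 in WAT and -0.44 in BAT.

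Ribosome-bound RNA of WAT at the same times changed at few of the genes with a called region. In the RNA, 508 of 12703 genes were called by edgeR, or 4%, of which 175 were higher (1.38%) and 333 lower (2.62%). Of 253 measured genes with a region that rose within 10 kb, 9 were higher and 4 lower in RNA, and of 174 with a region that fell, 4 were higher and 10 lower. Among 8687 genes with any region the counts were 100 and 253. The RNA calls depend on the scaling and on single libraries: with scaling by library total alone the split was 208 higher and 46 lower, the median over all genes being 0.745 in place of 0.216, and without ZT1 replicate 3 no gene was called while 1607 had an unadjusted p under 0.05. Some markers of other cell types moved with ZT1 in the RNA. Of 9 measured fibroblast markers Pdgfra, Dcn and Dpp4 were called higher, and of 9 measured muscle markers Myh4 was. The median log2 change was 2.04 over the fibroblast, 1.77 over the endothelial, 1.71 over the lymphocyte, 0.925 over the muscle and 0.38 over the macrophage markers, against -0.418 over the adipocyte markers. The part of this in the RNA values was not tested.

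Heg1, a transmembrane receptor of cell junctions, rose in both readouts. Its region held 38.7, 37.5 and 57.7 CPM at ZT1 and 18.5, 23.8 and 19.2 CPM at ZT21 (log2 1.07 ± 0.18, edgeR adjusted p = 0.00137), and its RNA 29.1, 37.3 and 36.3 CPM at ZT1 and 7.36, 3.65 and 4.12 CPM at ZT21 (log2 2.81 ± 0.49, edgeR adjusted p = 0.0058). Ppp1r3b, which brings protein phosphatase 1 to glycogen, fell in both, with RNA of 4.63, 3.25 and 5.01 CPM at ZT1 and 52.6, 18 and 29.9 CPM at ZT21 (log2 -2.94 ± 0.44, edgeR adjusted p = 0.00469) and a log2 change of -0.74 at its promoter. Hspb8, a small heat shock protein of chaperone-assisted autophagy, fell in both, with 31.9, 32.3 and 29.6 CPM at ZT1 and 59.2, 52.9 and 55.6 CPM at ZT21 at the promoter (log2 -0.83 ± 0.13) and 33.8, 41.8 and 39.9 CPM at ZT1 and 171, 125 and 168 CPM at ZT21 in RNA (log2 -2.01 ± 0.35). No library overlapped between the times in any of these 3 genes.

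Cish RNA was 0.831, 0.779 and 0.611 CPM at ZT1 and 10.5, 11.5 and 2.83 CPM at ZT21, so replicate 3 of ZT21 was the low one in RNA too (log2 -3.42 ± 0.80, edgeR adjusted p = 0.0189). At ZT21, Serpinc1 RNA was 5.26, 3.91 and 3.09 CPM, but Igf1 RNA 126, 103 and 245 CPM and Igfals RNA 6.31, 2.35 and 3.60 CPM. Replicate 3 was thus not the lowest at Igf1 or Igfals, and none of these RNAs was called. The labels do not say whether RNA and ATAC libraries of the same number came from the same animals. Fam46a, a nucleotidyltransferase, fell in both readouts (RNA log2 -2.12, promoter log2 -0.97), as did Nr2c2ap (RNA log2 -1.76, region log2 -0.60), and Amy1 rose in both (RNA log2 1.81, region log2 0.72), though near-identical amylase copies make its counts uncertain. Sema3b, a semaphorin, rose by 0.30 on the log2 scale at its region and by 5.16 ± 1.19 in RNA. Its RNA was 3.92, 5.19 and 4.64 CPM at ZT1 and 0, 0.261 and 0 CPM at ZT21, so the size of that change is uncertain. In 2 of the 10 genes the readouts went opposite ways, as they did at Scarb1 and Nfe2l1, described above, whose RNA was called outside these 10. Scarb1 RNA was 38.7, 22.2 and 26.1 CPM at ZT1 and 8.42, 6.26 and 8.24 CPM at ZT21 (log2 1.93 ± 0.52, edgeR adjusted p = 0.036) while its intronic region fell. Nfe2l1 RNA was 650.5, 501 and 306 CPM at ZT1 and 1779, 1312 and 1636 CPM at ZT21 (log2 -1.70 ± 0.45, edgeR adjusted p = 0.0345) while its region rose. Hk2 RNA was 331, 229 and 160 CPM at ZT1 and 1564, 845 and 1459 CPM at ZT21 (log2 -2.42, edgeR adjusted p = 0.00901) while its intronic region rose, and Podn, a small proteoglycan, fell in RNA (log2 -1.86) while its promoter rose (log2 0.62). Each of these 12 RNA calls was lost without ZT1 replicate 3. Of 14 other settings, the region call was lost in 9 at Sema3b, 8 at Podn, 6 at Nr2c2ap, 4 at Amy1 and Fam46a, 3 at Hk2 and 2 at Ppp1r3b, and in none at Heg1 and Hspb8.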

How the data were processed

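WAT and BAT chromatin was read as raw tag counts per 151-base region, deposited by the authors from HOMER annotation on mm10, 1 region set per depot, per the file headers. Bowtie2 2.4.1 for reads, and RSEM 1.3.0 and STAR 2.7.5 for RNA, are named in the submitters' processing notes. RNA was deposited as estimated counts per gene, which were rounded here, per the file headers. BMAL1 peaks carried a deposited HOMER score, used only to rank them. Members and lists were chosen with earlier results of these data known.

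Counts were tested with edgeR 4.0.16 (R 4.3.3), with TMM scaling, filterByExpr, the quasi-likelihood test and Benjamini-Hochberg adjustment, over all 18 WAT libraries of a kind, contrast ZT1 minus ZT21, or over 36 ATAC libraries for the depot difference. An SE is the log2 change over the root of its F value. The code was tested on simulated data. Named were, for each direction, the 15 called regions of the smallest p with no overlap between the times, 1 per gene; for each clock gene its region of the smallest p within 10 kb; the called regions of each list, or else 2; and the 10 genes of the smallest RNA p with a called region. The depot test named 22 regions more. Alternatives used DESeq2 1.42.0, other scalings, filters and left-out libraries. ZT1 and ZT21 libraries of the same number did not deviate together (correlations 0.0781, -0.0936 and -0.0727) and were not paired. Tag totals limit the precision to counting error at best. Overlaps used bedtools 2.31.1. Results at a few genes that these rules name are not reported here.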

Additional observations from a re-analysis of the deposited data

Results flagged for a closer look

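The change between ZT1 and ZT21 differed between WAT and BAT in 22 shared regions by the depot-by-time term of the edgeR fit (adjusted p under 0.05). Each value here is the log2 change in WAT minus that in BAT. Differences were positive at Car3 (0.67), Pomgnt2 (0.95), Apol6 (0.64), Gpx3 (1.27), 4732471J01Rik (1.14), Btbd2 (0.57), Ptgds (0.70), Endou (0.91), Gata3 (0.95) and Mir3109 (1.16). They were negative at Mgll (-1.04), Mir365-2 (-0.98 and -0.82), Steap4 (-1.24), A930019D19Rik (-1.04), Gm10637 (-0.88), Mir193a (-0.60 and -0.58), 2010106C02Rik (-0.66), Irs2 (-0.86), Rflna (-0.56) and Lacc1 (-1.01). Of the 22, 18 were called in WAT alone, 3 (Ptgds, Irs2 and Gata3) in BAT alone, and Car3 in both.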

How the results depend on the processing

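With 3 libraries a time, single libraries set much of the count of calls. The 1586 WAT regions ranged between 393, without ZT21 replicate 2, and 2440, without ZT21 replicate 3, when 1 library was left out, and were 559 without ZT1 replicate 2, 767 without ZT1 replicate 3 and 617 without ZT21 replicate 1. They were 400 with a 2-fold minimum, 1235 with DESeq2, 1165 with the 6 libraries alone, 1321 with a loess offset and 1727 with the replicate number as a block, of which 1528 were among the 1586. Of 86 named WAT calls, 46 held in all 14 settings, and no call changed sign in any setting run. The 22 depot differences ranged between 2 and 65 without 1 library, the lowest without WAT ZT21 replicate 2 and the highest without WAT ZT21 replicate 3. They were 60 with DESeq2, 2 with the ZT1 and ZT21 libraries alone and 21 with the replicate block, and 39 without ZT21 replicate 3 of both depots. WAT and BAT libraries of the same time and number deviated together in part (correlations -0.0515 to 0.515, over 0.1 in 11 of 18 pairs), and with such a pair as a block 155 regions were called, a fit added after seeing the data, as was that without replicate 3. The 508 RNA genes ranged between 0 without ZT1 replicate 3 (edgeR, 1607 at an unadjusted p under 0.05) and 874 without ZT21 replicate 2; they were 254 with library totals, 1016 with no filter, 1097 with DESeq2, 1002 with the 6 libraries alone and 800 with the replicate block. BMAL1 overlap of the regions that rose and of those that fell was 29.4% and 14.8% at 1 base of overlap, and 8.76% and 1.27% for the 2000 highest peaks. Those 2000 peaks overlapped 1276 of all 25050 regions. The share of all regions at 1 base is not given here, and the 23.6% of regions not called was counted at 75 bases. The cause of these moves was not tested. A GC correction was not run.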
